A study of Mus musculus with 4 samples.

Results

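Heat shock proteins and chaperones were taken as every gene of the deposited expression table whose symbol starts with Hspa, Hspb, Hspd, Hspe, Hsph, Hsp90 or Dnaj, or is Cct followed by a digit. This gave 84 genes of the 30282 in the table, after 1 pseudogene row was left out. The rule uses the symbol and no measured value, but it was written with earlier results of these data known. All 84 identifiers were found in the GENCODE M21 annotation of GRCm38 (mm10), and 77 had a mean of at least 10 normalised reads over the libraries and were tested. Poly(A) RNA libraries came from V6.5 mouse embryonic stem cells in which RPB3, a subunit of RNA polymerase II, carries an mAID-GFP degron tag (dRPB3). In the IAA group (2 libraries) the cells had doxycycline at 1 μg/ml for 12 h, which induces the plant protein TIR1, and then 500 μM indole-3-acetic acid (IAA), which lets TIR1 direct the tagged protein to degradation. In the untreated group (2 libraries) the cells had the same doxycycline without IAA. Both groups thus carry the tagged allele and the induced TIR1, both grew with the inhibitors CHIR99021 and PD0325901, and cells without the degron were not analysed here. The sample labels give 12 h of IAA, while a further sentence of the treatment protocol speaks of 1 h, and the time is unresolved. The number of clones behind the degron line is not given in the sources used here, and no label states whether the 2 libraries of a group come from separate cultures. The p-values therefore rest on library-to-library spread that may be technical.

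Chaperones bind unfolded or partly folded proteins and keep them from aggregating while they fold, move between compartments or are sent for degradation. HSP70 proteins do this in a cycle of ATP hydrolysis that J-domain proteins (the Dnaj genes) start and that nucleotide exchange factors such as HSP110 reset, HSP90 acts later on kinases, receptors and transcription factors, and the ring-shaped chaperonins enclose their clients. Each compartment has constitutive members, and the transcription factor HSF1 raises a stress-inducible set (among them Hspa1a, Hspa1b, Hsph1, Dnajb1, Hsp90aa1 and Hspb1) when unfolded protein accumulates. Embryonic stem cells are known for high levels of constitutive chaperones.

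The libraries held 9194432 and 8779401 recovered reads in the IAA group and 8724737 and 8794680 in the untreated group, so their depths were alike. The size factors with which the submitters scaled them were 0.98 and 0.95 for the IAA libraries and 0.88 and 0.87 for the untreated ones, which lowers the IAA values: the median log2 fold change of all 14928 genes tested was −0.11 with the deposited scaling and moved by 0.10 to −0.01 under median-of-ratios scaling. A log2 fold change in the text is IAA over untreated on log2(normalised read count + 1) and can be read against that median of −0.11. Polr2c, which encodes RPB3, had 3242 and 3158 normalised reads in IAA libraries, against 2726 and 2885 in untreated libraries, a log2 fold change of 0.19 (SE 0.04, adjusted p = 0.00116 by limma), and its mRNA does not check loss of the tagged protein. The 9 naive stem cell markers summed to 53158 and 51665 normalised reads in IAA libraries, against 46279 and 47768 in untreated libraries, but 4 were called higher and 2, Pou5f1 and Zfp42, lower (Zfp42 only with the deposited scaling). The 5 feeder fibroblast markers in the table summed to 349 and 358 in IAA libraries, against 425 and 495 in untreated libraries, and 10 markers of differentiated lineages to 542 and 546 in IAA libraries, against 483 and 497 in untreated libraries. The 5 markers of 2-cell-like cells summed to 52 and 63 in IAA libraries, against 41 and 34 in untreated libraries. Of the 8 feeder fibroblast markers listed, only 5 had a row in the deposited table. No marker with a row was at 0 in all libraries, and the part of these markers in the results was not tested. In bulk RNA, fewer cells of a type and less RNA per cell cannot be told apart.

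Of the 77 chaperone genes tested, 18 were higher and 32 were lower in IAA libraries, and 27 were not called (limma on all genes, adjusted p under 0.05). Among the chaperone genes this is 23.4% higher and 41.6% lower, against 11.1% and 28.9% (39.9% in either direction) of all 14928 genes tested. The chaperone genes' median log2 fold change was −0.11, the same as the median of all genes, and the genes lay on both sides of it. Both IAA libraries lay above both untreated libraries for 22 of the 77 genes and below them for 39, where 22.5% and 45.6% of all genes did so. The genes that were higher included Hspa1a, Hspa1b, Hsph1 and Dnajb1, which stress induces, whereas Hsp90aa1 and Hspb1, which stress also induces, were not called. The genes that were lower included many constitutive forms: the 7 subunits of the TRiC ring with Cct symbols were lower, as were Hsp90ab1, Hspa8, Hspa5, Hspa9, Hspa4, Hspd1 and Hspe1. Under median-of-ratios scaling 24 genes were called higher and 23 lower (all genes 20.3% and 20.5%, 40.8% in either direction), and with library totals 24 and 22 (all genes 20.7% and 20.0%, 40.6% in either direction). All 18 genes called higher kept that call under both other scalings, and 22 of the 32 called lower did. Hsp90aa1 and Hspb1, not called with the deposited scaling, were called higher under both other scalings.

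**Figure D1:**
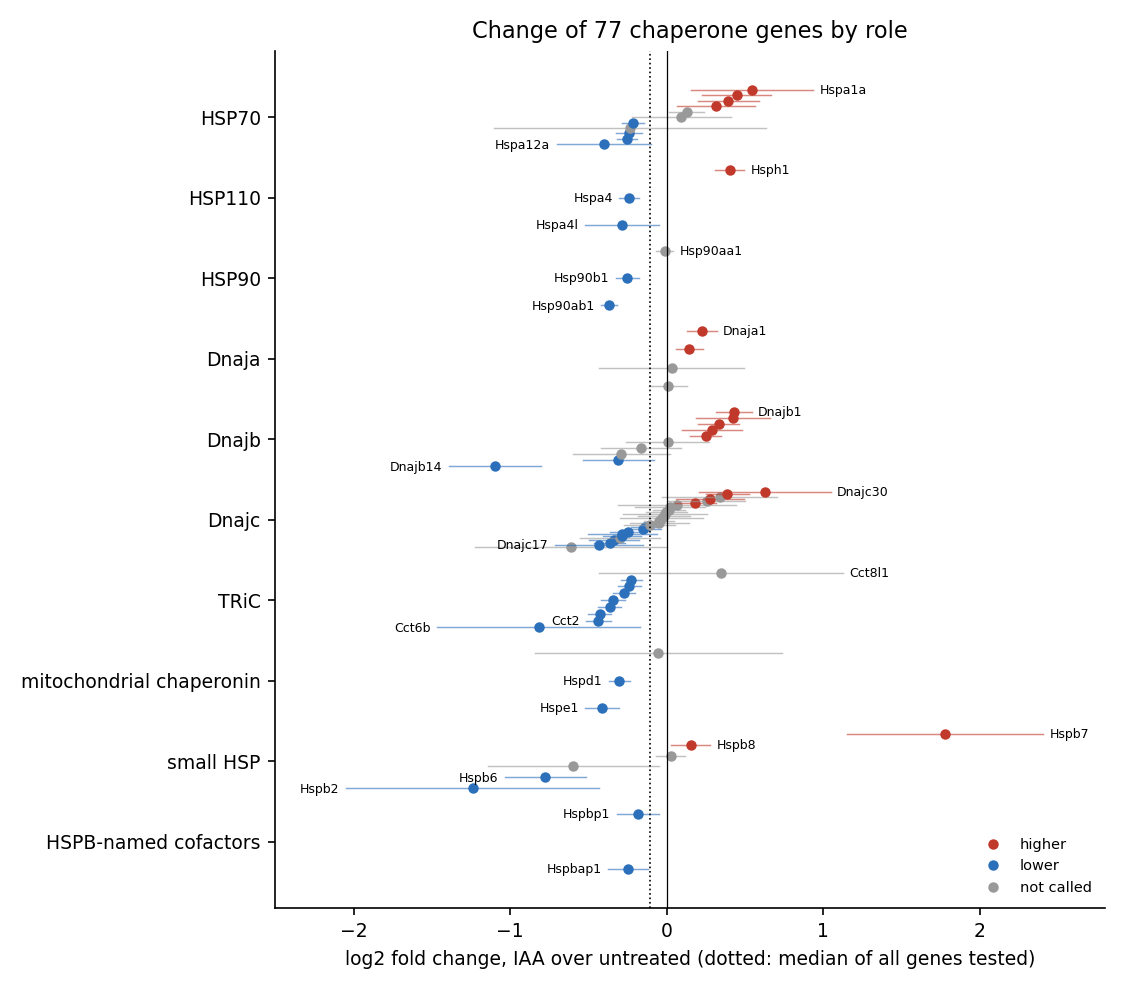
Log2 fold change, IAA over untreated, of the 77 chaperone genes tested, in rows by role, with 95% confidence intervals as lines and the call as colour; the dotted line is the median of all genes tested (−0.11). The TRiC, HSP90 and mitochondrial chaperonin rows lie mostly to the left of the dotted line, while Dnaja and Dnajb lie mostly to its right.

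Promoters of some inducible genes and of 2 constitutive groups are shown because they hold the letters of the response elements named for these families. RefSeq promoter windows (GRCm38.p6, 250 bases before to 50 after a start) were found for 67 of the chaperone genes. The heat shock element is built from inverted GAA units, and the search took GAANNTTC or TTCNNGAA on both strands as 2 units. The 3-unit form adds a further inverted unit at the same spacing to either of these and so contains 2 overlapping matches of the 2-unit form. Hspa1a and Hspa1b, both on the minus strand of chromosome 17, have promoter windows that differ at 4 of 300 bases, and each holds 1 match of the 2-unit form, in capitals.
Hspa1a (chr17:34972107-34972406, minus strand): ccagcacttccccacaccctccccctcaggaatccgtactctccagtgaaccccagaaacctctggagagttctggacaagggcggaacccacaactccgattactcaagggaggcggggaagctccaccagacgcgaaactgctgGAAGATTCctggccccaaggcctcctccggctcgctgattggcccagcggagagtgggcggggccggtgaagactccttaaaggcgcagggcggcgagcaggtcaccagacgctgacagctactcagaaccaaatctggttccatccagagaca
Hspa1b (chr17:34959189-34959488, minus strand): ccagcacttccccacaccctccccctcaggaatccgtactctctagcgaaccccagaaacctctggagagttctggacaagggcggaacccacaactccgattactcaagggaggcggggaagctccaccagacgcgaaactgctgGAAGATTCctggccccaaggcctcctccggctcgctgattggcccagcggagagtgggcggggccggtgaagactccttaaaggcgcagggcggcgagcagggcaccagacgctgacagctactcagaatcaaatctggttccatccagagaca

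Hsph1 and Dnajb6, both higher in IAA libraries, hold a 3-unit match, as do Hspd1 and Hspe1, both lower. Hspd1 and Hspe1 are transcribed away from each other, and a window of Hspd1 shares 285 bases on the opposite strand with that of Hspe1, so the same match lies in both windows. Capitals mark the matches of the 2-unit form.
Hsph1 (chr5:149636287-149636586, minus strand): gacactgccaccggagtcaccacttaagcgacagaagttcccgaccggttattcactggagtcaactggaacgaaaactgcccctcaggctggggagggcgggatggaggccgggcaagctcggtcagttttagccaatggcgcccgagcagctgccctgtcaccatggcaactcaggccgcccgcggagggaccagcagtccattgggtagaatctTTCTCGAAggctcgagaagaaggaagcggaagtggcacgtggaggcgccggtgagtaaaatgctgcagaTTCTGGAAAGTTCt
Dnajb6 (chr5:29735648-29735947, plus strand): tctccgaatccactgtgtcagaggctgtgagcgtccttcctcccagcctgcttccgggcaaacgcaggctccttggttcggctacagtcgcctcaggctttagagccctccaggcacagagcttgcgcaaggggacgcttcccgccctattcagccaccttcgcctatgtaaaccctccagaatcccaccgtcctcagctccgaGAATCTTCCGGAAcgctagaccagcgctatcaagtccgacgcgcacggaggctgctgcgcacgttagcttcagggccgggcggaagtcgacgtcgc
Hspe1 (chr1:55087898-55088197, plus strand): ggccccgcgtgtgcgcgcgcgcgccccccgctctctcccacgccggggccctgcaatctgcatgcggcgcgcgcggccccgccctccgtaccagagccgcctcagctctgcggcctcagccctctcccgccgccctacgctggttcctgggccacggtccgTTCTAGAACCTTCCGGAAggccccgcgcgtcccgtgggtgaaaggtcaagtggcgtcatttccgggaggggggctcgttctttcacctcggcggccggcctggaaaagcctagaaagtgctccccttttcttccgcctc

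Hspa5 and Hsp90b1, the ER forms of HSP70 and HSP90 and both lower, hold the ER stress response element (CCAAT, 9 bases of any kind, then CCACG, on either strand), with 1 match in Hspa5 and 2 in Hsp90b1, marked in capitals.
Hspa5 (chr2:34771840-34772139, plus strand): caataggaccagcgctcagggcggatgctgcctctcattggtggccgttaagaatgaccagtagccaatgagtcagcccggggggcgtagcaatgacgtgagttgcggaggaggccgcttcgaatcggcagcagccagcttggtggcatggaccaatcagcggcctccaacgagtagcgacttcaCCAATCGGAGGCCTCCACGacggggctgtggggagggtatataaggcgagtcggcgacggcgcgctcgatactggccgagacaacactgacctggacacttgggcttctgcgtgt
Hsp90b1 (chr10:86705395-86705694, minus strand): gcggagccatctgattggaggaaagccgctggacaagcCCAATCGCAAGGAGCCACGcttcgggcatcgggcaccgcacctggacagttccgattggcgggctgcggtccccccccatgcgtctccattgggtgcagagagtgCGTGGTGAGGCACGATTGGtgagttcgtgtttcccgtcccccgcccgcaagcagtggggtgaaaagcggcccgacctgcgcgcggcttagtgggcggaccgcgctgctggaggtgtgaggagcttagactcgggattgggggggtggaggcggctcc

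The 2-unit form was found for 20 of the 67 chaperone genes, where 17.0% of 27025 genes hold it. It was found for 7 of 15 genes called higher (Dnaja1, Dnajb6, Dnajc27, Hspa1a, Hspa1b, Hspb8 and Hsph1) and 7 of 26 called lower (Cct2, Cct5, Cct6a, Dnajc10, Hspb6, Hspd1 and Hspe1). Of the 20 not called, 4 held it (Cct8l1, Dnaja4, Dnajb4 and Hspb1), as did 2 of 6 not tested (Dnajc5g and Hspb3). Hspb1, a gene of the inducible set whose window is not printed, held 2 matches. Hsp90aa1, also of that set, had no window and was not searched, and neither were Hsp90ab1 and Hspa8. The 3-unit form was held by 4 chaperone genes, where 0.662% of all genes hold it. Dnajb6 and Hsph1 were called higher, and Hspd1 and Hspe1, whose windows share the same match, were called lower. The ER element was held by 3 (Dnajc3, Hsp90b1 and Hspa5), none of them called higher, where 0.137% of all genes hold it. Dnajb1, a gene of the inducible set, had no match to either form within its windows, and these letters say nothing of which factor was bound.

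Among the 11 HSP70 genes tested, 4 were higher, 4 were lower and 3 were not called. This was 36.4% in each direction, against 11.1% higher and 28.9% lower of all genes tested. The 3 HSP70 genes with the most reads were all lower. Hspa8, the constitutive cytosolic HSP70, had 14957 and 15161 normalised reads in IAA libraries, against 17401 and 18521 in untreated libraries, a log2 fold change of −0.25 (SE 0.03, adjusted p = 1.9e-06). Hspa9, the HSP70 of the mitochondrial matrix, had 6899 and 6653 in IAA libraries and 7953 and 7767 in untreated libraries, a log2 fold change of −0.21 (SE 0.03, adjusted p = 3.8e-05). Hspa5 (BiP), the HSP70 of the ER, had 3161 and 3027 in IAA libraries and 3633 and 3679 in untreated libraries, a log2 fold change of −0.24 (SE 0.04, adjusted p = 6.8e-05). For all 3 both IAA libraries lay below both untreated libraries. In the fits on unrounded values that left out 1 library, the log2 fold change lay between −0.30 and −0.21 for Hspa8. It lay between −0.24 and −0.19 for Hspa9 and between −0.27 and −0.21 for Hspa5. These fits, also used below, were chosen after seeing the data and take the spread of a group with 1 library from the other group. The closing section gives the fits on rounded values. Of the 50-base stretches of Hspa8, 38.6% also occur in other genes, and the 5 genes outside the chaperone set that share most of this sequence hold 14.0% of its value in sum.

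The stress-inducible pair was at a far lower level and higher in IAA libraries. Hspa1b (chromosome 17, 34956436 to 34959238, minus strand, a gene with 1 exon) had 287 and 248 normalised reads in IAA libraries, against 192 and 199 in untreated libraries, an interval of the log2 fold change from 0.23 to 0.66 (adjusted p = 0.0019). Hspa1a (chromosome 17, 34969190 to 34972156, minus strand, 1 exon) had 94 and 84 in IAA libraries and 51 and 72 in untreated libraries, with an interval from 0.15 to 0.94 (adjusted p = 0.026). The IAA libraries lay above the untreated ones for both genes, but for Hspa1a the untreated libraries lay further from each other than the gap between the groups. Without IAA replicate 1 the log2 fold change of Hspa1a was 0.46 (adjusted p = 0.118), and without untreated replicate 1 it was 0.29 (adjusted p = 0.286). The 2 genes share 60.3% and 62.3% of their 50-base stretches with other genes, mainly with each other, so reads may be split between them, and 19.0% of the Hspa1a exon lies within an annotated gene on the other strand. Their sum was 381 and 332 in IAA libraries and 243 and 271 in untreated libraries, with no overlap.

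Of the other HSP70 genes, Hspa13, a divergent form of microsomes, had 332 and 354 normalised reads in IAA libraries, against 276 and 246 in untreated libraries, a log2 fold change of 0.39 (SE 0.09, adjusted p = 0.002). Hspa2, best known from male germ cells, had 178 and 183 in IAA libraries and 138 and 152 in untreated libraries (log2 fold change 0.32, SE 0.12, adjusted p = 0.039). Hspa12a, a distant relative, had 88 and 91 in IAA libraries and 122 and 115 in untreated libraries (log2 fold change −0.40, SE 0.14, adjusted p = 0.033). The groups did not overlap for any of these, but only Hspa13 kept its call in every fit on unrounded values without 1 library: Hspa2 lost it in 3 of the 4 fits, with adjusted p up to 0.185 without untreated replicate 1, and Hspa12a in all 4, with adjusted p up to 0.133. Hspa12a was also not called under median-of-ratios scaling (adjusted p = 0.105). The symbol Hspa14 stands on 2 genes of the table, a ribosome-associated form. The more abundant one (ENSMUSG00000109865) had 1231 and 1211 in IAA libraries and 1150 and 1086 in untreated libraries, a log2 fold change of 0.13 that was not called (adjusted p = 0.064) but was called higher under median-of-ratios scaling (0.23, adjusted p = 0.00027). The other (ENSMUSG00000051396, named Gm45902 in GENCODE M21) had 99 and 128 in IAA libraries and 105 and 106 in untreated libraries and was not called. Hspa12b, near the lower limit, had 8 and 17 in IAA libraries and 13 and 15 in untreated libraries and was not called.

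HSP110 proteins are large relatives of HSP70 that exchange its nucleotide, and the 3 genes differed in direction. Hsph1, the heat-inducible form, had 2918 and 2779 normalised reads in IAA libraries, against 2095 and 2208 in untreated libraries, a log2 fold change of 0.40 (SE 0.04, adjusted p = 6.1e-07). Hspa4, the most abundant form, had 9930 and 9684 in IAA libraries and 11390 and 11739 in untreated libraries, a log2 fold change of −0.24 (SE 0.03, adjusted p = 4.3e-06). The groups stood apart for both, in opposite directions, and both calls held in every fit on unrounded values without 1 library. Hspa4l, a form best known from testis, had 173 and 156 in IAA libraries and 198 and 203 in untreated libraries. Its log2 fold change of −0.29 (SE 0.11, adjusted p = 0.049) lay at the threshold and was not called under median-of-ratios scaling (adjusted p = 0.204), with the replicate number as a block, or without IAA replicate 2 or either untreated library. Within a library, Hsph1 stood at 29.4% and 28.7% of Hspa4 in IAA libraries and at 18.4% and 18.8% in untreated libraries, a ratio that library scaling does not touch.

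**Figure D2:**
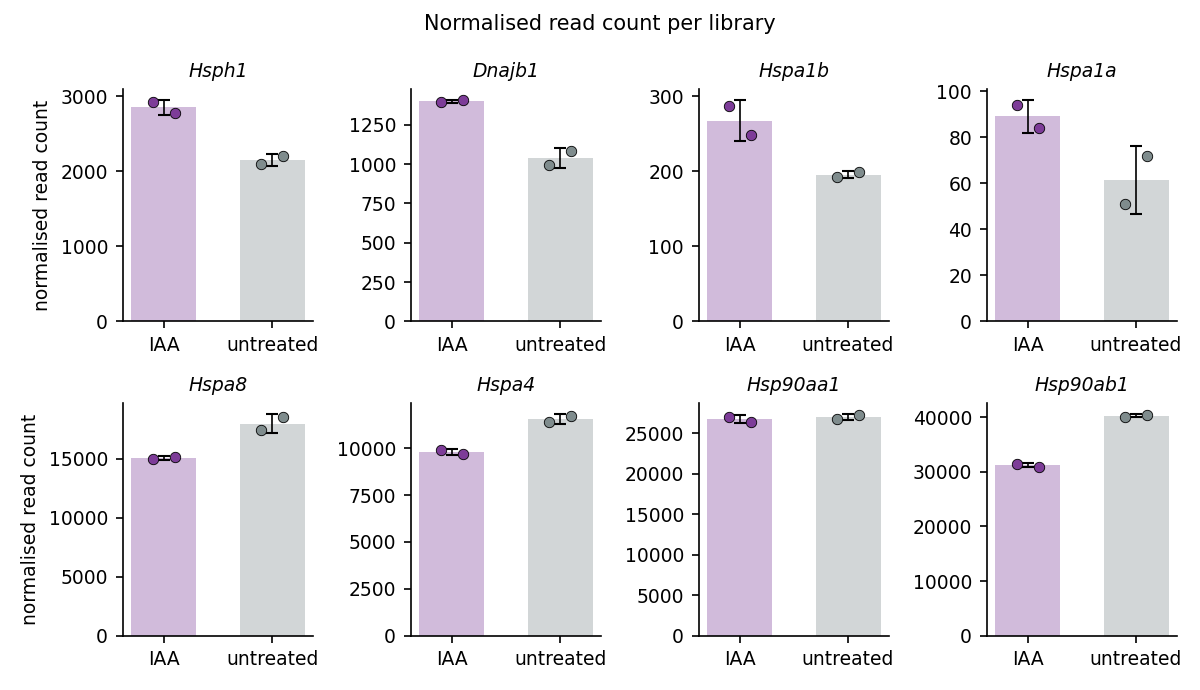
Normalised read count of 8 chaperone genes in each library (points), with bars for the mean and lines for the SD of 2 libraries, IAA left and untreated right. Hsph1, Dnajb1, Hspa1b and Hspa1a in the upper row have IAA above untreated, Hspa8, Hspa4 and Hsp90ab1 have IAA below, and Hsp90aa1 has both groups between 26437 and 27251.

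The 2 cytosolic HSP90 genes were the most abundant chaperone genes and differed in their response. Hsp90ab1, the constitutive form (chromosome 17, 45567775 to 45573271, minus strand), had 31451 and 30916 normalised reads in IAA libraries, against 40058 and 40453 in untreated libraries. Its log2 fold change was −0.37 (SE 0.02, adjusted p = 6.8e-10), and the groups stood far apart. Hsp90aa1, the form with stress-inducible transcription (chromosome 12, 110690605 to 110702728, minus strand), had 27086 and 26437 in IAA libraries and 26730 and 27251 in untreated libraries. Its groups overlapped and its log2 fold change of −0.01 was not called, with a 95% interval from −0.07 to 0.04, while under median-of-ratios scaling it was 0.09 and called higher (adjusted p = 0.00062). The ratio of Hsp90aa1 to Hsp90ab1 was 0.861 and 0.855 in IAA libraries and 0.667 and 0.674 in untreated libraries. Hsp90b1 (GRP94), the ER form, had 4331 and 4282 in IAA libraries and 5110 and 5144 in untreated libraries, a log2 fold change of −0.25 (SE 0.04, adjusted p = 1.2e-05), close to that of Hspa5 in the same compartment. Of Hsp90aa1, 47.5% of the 50-base stretches also occur in other genes, mostly processed copies, whose rows hold 0.795% of its value. Of Hsp90b1, 15.7% of the exonic bases lie in other annotated genes, 1 of them on the other strand.

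**Figure D3:**
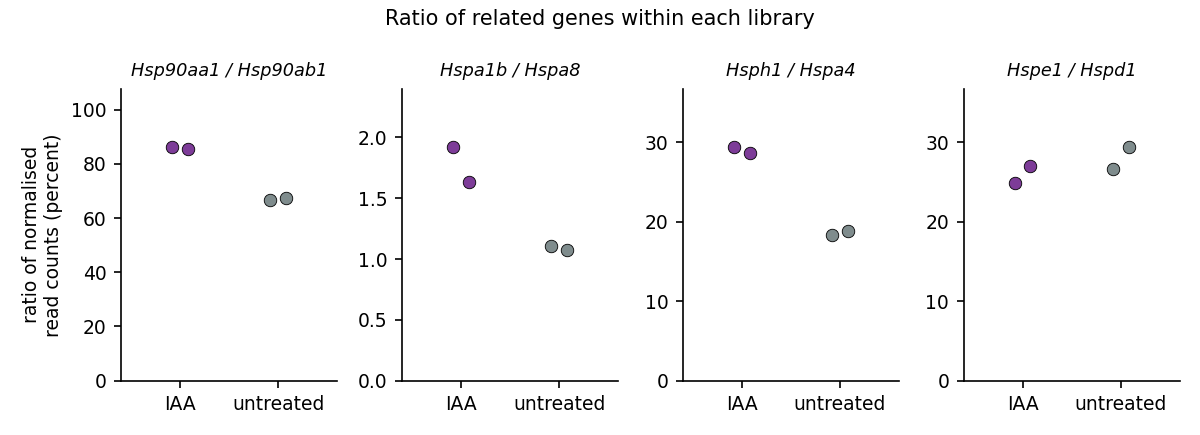
Ratio of normalised read counts of related genes within each library, in percent, IAA left and untreated right, 1 point per library. Hsp90aa1 to Hsp90ab1, Hspa1b to Hspa8 and Hsph1 to Hspa4 are higher in both IAA libraries, whereas Hspe1 to Hspd1 overlaps between the groups.

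Set against the constitutive form in the same library, Hspa1b stood at 1.92% and 1.64% of Hspa8 in IAA libraries and at 1.10% and 1.07% in untreated libraries. Hspa1b thus stayed at a low level beside Hspa8 in both groups. Hspa1a is left out of this ratio, and sequence shared by Hspa1a and Hspa1b may affect the reads counted for Hspa1b. These pairs were chosen after the values were seen and carry no test, since the smallest p that 2 libraries against 2 allow in a two-sided exact permutation test is 0.333.

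J-domain proteins deliver clients to HSP70 and start its ATP hydrolysis, and its 3 classes are described by their counts, with no test between them. Of the 4 Dnaja genes tested 2 were higher and none lower, of the 10 Dnajb genes 5 were higher and 2 lower, and of the 26 Dnajc genes 4 were higher and 8 lower (15.4% and 30.8%, against 11.1% and 28.9% of all genes tested). Their median log2 fold changes were 0.09, 0.13 and −0.04, all above the −0.11 of all genes. Dnajb1 (HSP40), the inducible cytosolic partner of HSP70, had 1392 and 1404 normalised reads in IAA libraries, against 992 and 1084 in untreated libraries (95% interval of the log2 fold change 0.32 to 0.55, adjusted p = 3.9e-06). Dnajb6, which holds aggregation-prone proteins in solution, had 1918 and 1858 in IAA libraries and 1615 and 1562 in untreated libraries (log2 fold change 0.25, SE 0.05, adjusted p = 0.00029). The groups were apart for both, and both calls held without any 1 library in the unrounded values. The class A genes Dnaja1 and Dnaja2, general cytosolic partners of HSP70, were also higher. Dnaja1 had 2533 and 2497 in IAA libraries and 2072 and 2232 in untreated libraries (log2 fold change 0.23, SE 0.05, adjusted p = 0.00054). Dnaja2 had 3613 and 3414 in IAA libraries and 3109 and 3241 in untreated libraries (log2 fold change 0.15, SE 0.04, adjusted p = 0.0082), a call lost without IAA replicate 1 (adjusted p = 0.151).

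Dnajb14, a J protein of the ER membrane with its J domain in the cytosol, moved most among the J proteins. It had 85 and 81 normalised reads in IAA libraries, against 161 and 198 in untreated libraries, a log2 fold change of −1.10 (SE 0.14, adjusted p = 4.1e-06), with the groups far apart. In the authors' deposited table its log2 fold change was −1.11 and it was the only chaperone gene with the label down. Dnajb12, the other ER membrane J protein of this kind, was higher, with 384 and 379 in IAA libraries and 343 and 284 in untreated libraries (log2 fold change 0.29, SE 0.09, adjusted p = 0.018), but not without untreated replicate 2 (0.15, adjusted p = 0.26). The J proteins of the ER lumen did not share a direction. Dnajb9 (ERdj4) had 193 and 209 in IAA libraries and 151 and 148 in untreated libraries (log2 fold change 0.42, SE 0.11, adjusted p = 0.0056), a call lost without IAA replicate 2 (adjusted p = 0.059). Dnajb11 (ERdj3) had 930 and 987 in IAA libraries and 726 and 797 in untreated libraries (log2 fold change 0.33, SE 0.06, adjusted p = 0.00029). Both IAA libraries were above both untreated ones for these 2 genes. Dnajc10 (ERdj5), by contrast, had 812 and 793 in IAA libraries and 975 and 982 in untreated libraries (log2 fold change −0.29, SE 0.06, adjusted p = 0.0005), with both IAA libraries below and the call kept under every scaling and in every unrounded fit without 1 library. Dnajc3 (P58IPK) had 428 and 400 in IAA libraries and 463 and 430 in untreated libraries and was not called (log2 fold change −0.11, adjusted p = 0.289). Dnajb2 was the other Dnajb gene called lower (log2 fold change −0.31), a call lost under median-of-ratios scaling (adjusted p = 0.144) and in every unrounded fit without 1 library.

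The Dnajc class holds J proteins tied to many other processes, and 14 of the 26 tested were not called. The most abundant, Dnajc13, an endosomal protein, had 2006 and 1999 normalised reads in IAA libraries, against 2207 and 2195 in untreated libraries, a log2 fold change of −0.14 (SE 0.04, adjusted p = 0.017). That call was lost under median-of-ratios scaling (−0.04, adjusted p = 0.548) and without either IAA library. Dnajc7, which binds both HSP70 and HSP90, had 1773 and 1813 in IAA libraries and 1825 and 1877 in untreated libraries and was not called (log2 fold change −0.05, 95% interval −0.14 to 0.05). Dnajc5, the cysteine string protein of secretory vesicles, had 917 and 926 in IAA libraries and 748 and 662 in untreated libraries (log2 fold change 0.39, SE 0.07, adjusted p = 8.5e-05). Dnajc8, a spliceosome-associated protein, had 1523 and 1606 in IAA libraries and 2003 and 2021 in untreated libraries (log2 fold change −0.36, SE 0.05, adjusted p = 4.5e-06). The groups stood clear of each other for both, and both calls held in every unrounded fit without 1 library. Dnajc30, a mitochondrial J protein encoded by 1 exon, had 84 and 69 in IAA libraries and 42 and 57 in untreated libraries, a log2 fold change of 0.63 (SE 0.20, adjusted p = 0.018) that was 0.49 (adjusted p = 0.136) without IAA replicate 1 and 0.40 (adjusted p = 0.164) without untreated replicate 1. Of its exon, 26.2% lies within Bud23 on the other strand. Dnajc17 had 101 and 103 in IAA libraries and 143 and 133 in untreated libraries (log2 fold change −0.43, SE 0.14, adjusted p = 0.015), and was not called under median-of-ratios scaling (adjusted p = 0.052) or without IAA replicate 1 or untreated replicate 1. The 14 Dnajc genes not called had log2 fold changes from −0.61 (Dnajc28) to 0.34 (Dnajc25). Dnajb2, Dnajb11, Dnajb12, Dnajc3, Dnajc5, Dnajc8, Dnajc10, Dnajc25 and Dnajc28 were named after their values were seen.

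TRiC (CCT) is the chaperonin of the cytosol, a double ring of 8 different subunits that folds actin and tubulin, and its subunit genes fell together. Cct2 had 4518 and 4363 normalised reads in IAA libraries, against 5834 and 6198 in untreated libraries, a log2 fold change of −0.44 (SE 0.04, adjusted p = 3.1e-08). Cct4 had 4356 and 4289 in IAA libraries and 5731 and 5900 in untreated libraries, a log2 fold change of −0.43 (SE 0.04, adjusted p = 1.8e-08). Cct6a had 4542 and 4455 in IAA libraries and 5666 and 5921 in untreated libraries (log2 fold change −0.36), and Cct5 had 4485 and 4513 in IAA libraries and 5551 and 5855 in untreated libraries (log2 fold change −0.34). Of the 7 Cct subunits these 4 fell most, and for each the gap between the groups was several times the gap within them. Cct7 had 8777 and 8401 in IAA libraries and 10110 and 10657 in untreated libraries (log2 fold change −0.27). Cct3 had 4810 and 4583 in IAA libraries and 5505 and 5564 in untreated libraries (log2 fold change −0.24), and Cct8 had 6309 and 6196 in IAA libraries and 7192 and 7421 in untreated libraries (log2 fold change −0.22). Adjusted p-values of these 7 lay between 1.8e-08 and 3.2e-05, and all 7 calls held under both other scalings and in all 4 unrounded fits without 1 library. The subunit gene outside the symbol rule, Tcp1 (CCT1), had 3320 and 3396 in IAA libraries and 4341 and 4538 in untreated libraries, a log2 fold change of −0.40 (SE 0.04, adjusted p = 1.2e-07). Of the exonic bases of Cct6a, 15.3% lie in other annotated genes, among them Psph on the other strand.

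**Figure D4:**
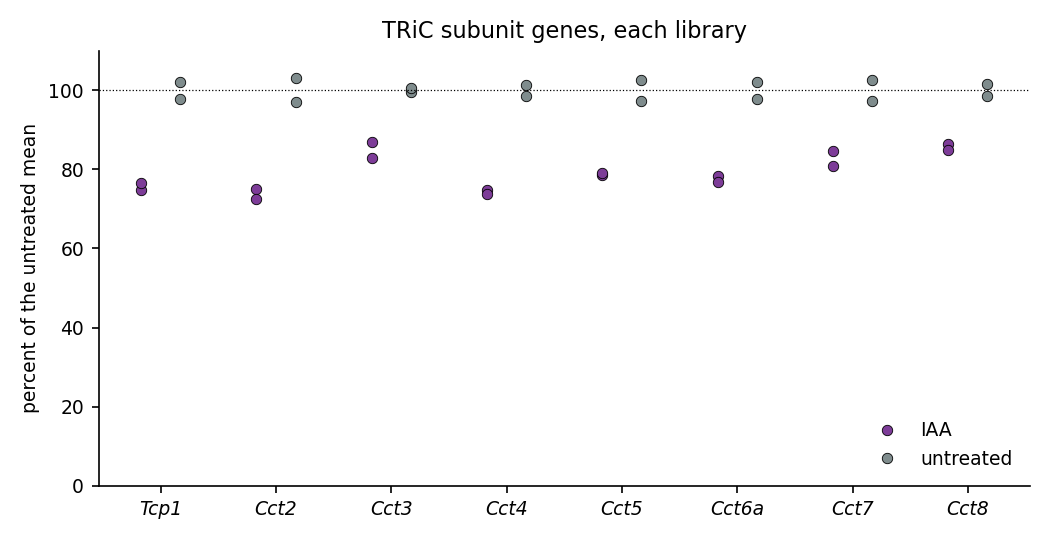
The 8 TRiC subunit genes in each library, as percent of the gene's mean over the untreated libraries, IAA left and untreated right within each gene. IAA libraries lie between 72.5% and 86.9% and untreated libraries between 97.0% and 103%, with no overlap for any subunit.

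Expressed against the untreated mean, Cct2 stood at 73.8% ± 1.8 in IAA libraries (SD, n = 2), with an SD of 4.3 percentage points in untreated libraries, and Cct8 stood at 85.6% ± 1.1, with an SD of 2.2 in untreated libraries. Of the subunits Cct2 fell most and Cct8 least, and differences between subunits were not tested. The ratio of Cct2 to Cct8 was 0.716 and 0.704 in IAA libraries and 0.811 and 0.835 in untreated libraries, a pair chosen after the values were seen. The 2 minor relatives were near the lower limit. Cct6b, the testis form of subunit 6, had 14 and 22 in IAA libraries and 28 and 36 in untreated libraries, a log2 fold change of −0.82 (SE 0.31, adjusted p = 0.041) that was not called under median-of-ratios scaling (adjusted p = 0.06) or without IAA replicate 1 (−0.51, adjusted p = 0.286) or untreated replicate 2 (−0.65, adjusted p = 0.232). Cct8l1 had 15 and 16 in IAA libraries and 13 and 11 in untreated libraries and was not called (log2 fold change 0.35, 95% interval −0.43 to 1.13).

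The mitochondrial chaperonin, formed by HSP60 (Hspd1) and its lid HSP10 (Hspe1), was also lower. Hspd1 (chromosome 1, 55077835 to 55088243, minus strand) had 8923 and 8554 normalised reads in IAA libraries, against 10592 and 10975 in untreated libraries, a log2 fold change of −0.30 (SE 0.03, adjusted p = 4.4e-07). Hspe1 (chromosome 1, 55088132 to 55091307, plus strand) had 2217 and 2307 in IAA libraries and 2815 and 3220 in untreated libraries, a log2 fold change of −0.41 (SE 0.05, adjusted p = 3.1e-06). The groups were apart for both, and the calls held under every scaling and in every unrounded fit without 1 library. Hspe1 stood at 24.8% and 27.0% of Hspd1 in IAA libraries and at 26.6% and 29.3% in untreated libraries, and these overlapped. Their starts lie in the shared window printed above, and 4.24% of the exonic bases of Hspd1 and 7.60% of those of Hspe1 overlap the other gene on the opposite strand.

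Small heat shock proteins bind unfolding proteins without ATP, and the 6 tested had no common direction: 2 were higher, 2 lower and 2 not called. This was 33.3% in each direction, against 11.1% higher and 28.9% lower of all genes tested. Hspb7, a form best known from heart muscle, had 61 and 47 normalised reads in IAA libraries, against 20 and 11 in untreated libraries. Its log2 fold change of 1.78 (SE 0.30, adjusted p = 9.0e-05) was the largest increase among the chaperone genes, it rests on 60 and 45 recovered reads in IAA libraries and 18 and 10 in untreated libraries, and it lay between 1.35 and 2.13 in the unrounded fits without 1 library. Hspb6, a muscle form as well, had 110 and 114 in IAA libraries and 183 and 202 in untreated libraries, a log2 fold change of −0.77 (SE 0.12, adjusted p = 5.1e-05), with groups far apart. Hspb2 had 16 and 7 in IAA libraries and 32 and 22 in untreated libraries, a log2 fold change of −1.24 (SE 0.39, adjusted p = 0.015) that was −0.66 (adjusted p = 0.205) without IAA replicate 2 and −0.92 (adjusted p = 0.149) without untreated replicate 1, and 30.2% of its exonic bases overlap Cryab on the other strand. Hspb8, a partner of the cochaperone BAG3, had 921 and 920 in IAA libraries and 794 and 861 in untreated libraries, a log2 fold change of 0.15 (SE 0.06, adjusted p = 0.046) that was lost without either IAA library, without untreated replicate 1 (0.10) and with the replicate number as a block. Hspb1 (HSP27), the most abundant small form, had 2394 and 2239 in IAA libraries and 2233 and 2318 in untreated libraries and was not called (log2 fold change 0.03, 95% interval −0.07 to 0.12), but was called higher under median-of-ratios scaling (0.13, adjusted p = 0.013). Of its 50-base stretches 48.8% occur in another gene, whose row holds 0.163% of its value. Hspb11, also known as the cilium transport protein IFT25, had 26 and 24 in IAA libraries and 43 and 34 in untreated libraries and was not called (adjusted p = 0.076). The 2 cofactors with HSPB-like symbols were lower. Hspbap1, which binds small heat shock proteins, had 820 and 801 in IAA libraries and 914 and 1009 in untreated libraries (log2 fold change −0.24, SE 0.06, adjusted p = 0.0034), a call lost with library totals and without untreated replicate 2 (adjusted p = 0.053). Hspbp1, an HSP70 nucleotide exchange factor, had 638 and 622 in IAA libraries and 699 and 733 in untreated libraries (log2 fold change −0.18, SE 0.06, adjusted p = 0.027), a call lost under median-of-ratios scaling (adjusted p = 0.318) and without either IAA library or untreated replicate 2.

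The 7 chaperone genes below the lower limit were Dnajb3, Dnajb7, Dnajc5b, Dnajc5g, Hspa1l, Hspb3 and Hspb9. They had at most 13 normalised reads in any library, and none was tested.

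The counts differed between levels of expression. Of the 28 with a mean of 1000 or more, 5 were higher and 18 lower (17.9% and 64.3%), where 16.9% and 43.6% of all 2601 genes at that level were called. Under median-of-ratios scaling the 28 genes gave 9 higher and 16 lower (32.1% and 57.1%), against 34.4% and 27.8% of all genes at that level. Of the 35 with a mean from 100 to 1000, 10 were higher and 12 lower (28.6% and 34.3%, against 12.8% and 33.4% of all genes), and of the 14 below 100, 3 were higher and 2 lower (21.4% and 14.3%, against 5.71% and 15.3% of all 5201 genes). Among chaperone genes with 1 exon, 3 of the 5 tested were higher (Hspa1a, Hspa1b and Dnajc30) and none lower, where 23.2% and 10.3% of the 341 protein-coding genes with 1 exon were. Each of these counts describes the genes and was not tested as a set.

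**Figure D5:**
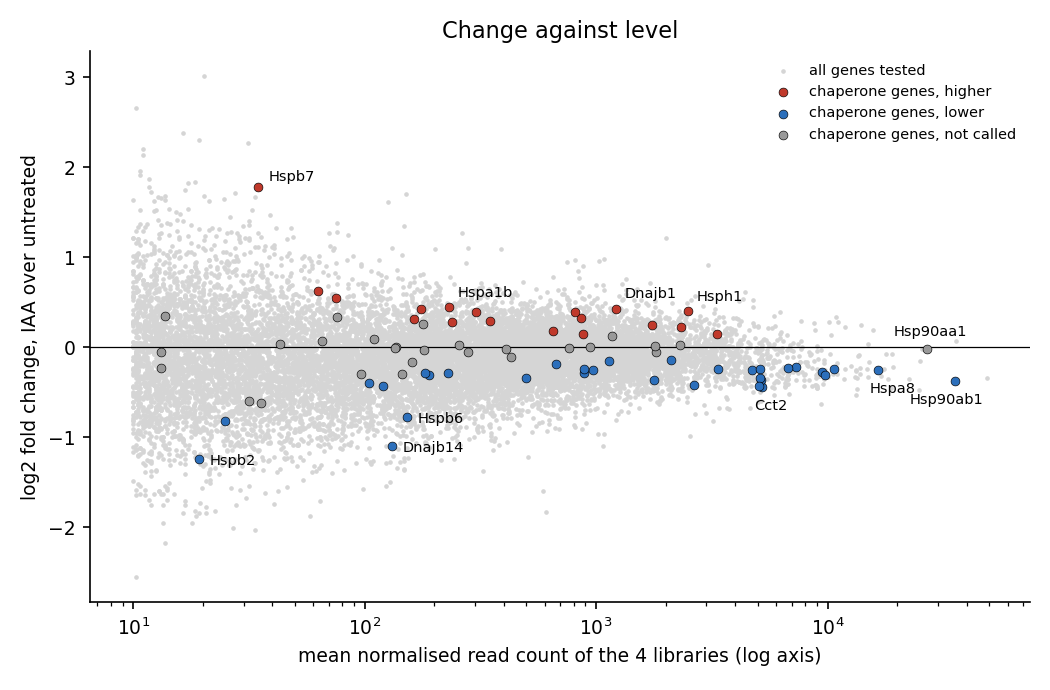
Log2 fold change, IAA over untreated, against the mean normalised read count of the 4 libraries (log axis), with all 14928 genes tested in grey and the chaperone genes coloured by call. No chaperone gene with a mean above that of Dnaja2 (3344) is called higher, and above Hsp90b1 all are called lower except Hsp90aa1.

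The chaperone genes together held 1.98% and 1.97% of all normalised reads in IAA libraries, against 2.10% and 2.11% in untreated libraries. Hsp90ab1 alone held 0.335% in each IAA library and 0.404% and 0.40% in untreated libraries. Without it the share was 1.64% and 1.63% in IAA libraries and 1.69% and 1.71% in untreated libraries, still without overlap. Per kilobase of exon, Hsp90ab1 was also the highest, with a mean level of 10398 normalised reads per kilobase in IAA libraries and 13423 in untreated libraries. In the same unit Hspa1a stood at 30.0 in IAA libraries and 20.7 in untreated libraries, and Hspa1b at 95.4 in IAA libraries and 69.7 in untreated libraries.

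Genes that work with the chaperones were taken from 7 lists, and no list was tested as a set. Their counts can be read against all 14928 genes tested, of which 11.1% were higher and 28.9% lower. Under median-of-ratios scaling these shares of all genes were 20.3% and 20.5%. Of the 16 HSP90 co-chaperones, 9 were lower and none higher, and under median-of-ratios scaling 6 were lower and 4 higher. Fkbp4 (FKBP52), an immunophilin of steroid receptor complexes, had 7029 and 6764 in IAA libraries and 8508 and 9299 in untreated libraries (log2 fold change −0.37, SE 0.04, adjusted p = 3.2e-07). Of the 14 HSP70 cofactors, 3 were higher and 6 lower (4 and 3 under median-of-ratios scaling). Bag2, an HSP70 exchange factor, had 20 and 22 in IAA libraries and 52 and 38 in untreated libraries (log2 fold change −1.05, SE 0.27, adjusted p = 0.0037), a call lost without untreated replicate 1 (adjusted p = 0.079). Sil1, the exchange factor of BiP, had 183 and 166 in IAA libraries and 255 and 280 in untreated libraries (log2 fold change −0.61, SE 0.11, adjusted p = 0.00012). The groups were apart for Fkbp4, Bag2 and Sil1. Of the 12 TRiC partners and prefoldins, 1 was higher and 6 were lower (2 and 3 under median-of-ratios scaling), with Tcp1 as given above and Uxt at 105 and 101 in IAA libraries and 127 and 139 in untreated libraries (log2 fold change −0.36, SE 0.14, adjusted p = 0.04), a call lost under median-of-ratios scaling and in 3 of 4 unrounded fits without 1 library.

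Of the 6 heat shock factors and binding proteins tested, none was higher and 1 was lower, where 11.1% and 28.9% of all genes tested were. Hsf1, the main activator of the heat shock genes, had 747 and 855 normalised reads in IAA libraries, against 732 and 707 in untreated libraries. Its log2 fold change of 0.15 was not called (95% interval 0.01 to 0.29, adjusted p = 0.082), but under median-of-ratios scaling it was 0.25 and called higher. Hsf2 had 579 and 564 in IAA libraries and 589 and 624 in untreated libraries and was not called (log2 fold change −0.09). Hsf2bp, which binds HSF2, had 336 and 371 in IAA libraries and 591 and 587 in untreated libraries (log2 fold change −0.74, SE 0.08, adjusted p = 3.0e-07). Of 7 other known HSF1 targets tested, 3 were higher and 2 lower. Hmox1, the heme-degrading enzyme, had 1812 and 1889 in IAA libraries and 1266 and 1294 in untreated libraries (log2 fold change 0.53, SE 0.05, adjusted p = 6.7e-08).

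Of 17 genes of ER folding and the unfolded protein response, 2 were higher and 6 lower (4 and 4 under median-of-ratios scaling). Sdf2l1, an ER chaperone cofactor, had 241 and 241 normalised reads in IAA libraries, against 317 and 316 in untreated libraries (log2 fold change −0.39, SE 0.09, adjusted p = 0.0018). Pdia4, a protein disulfide isomerase, had 1730 and 1798 in IAA libraries and 2243 and 2300 in untreated libraries (log2 fold change −0.36, SE 0.05, adjusted p = 2.6e-06). Both were lower, as Hspa5 and Hsp90b1 were. Of 9 mitochondrial chaperones and proteases, none was higher and 6 were lower (3 under median-of-ratios scaling). Clpb, a mitochondrial disaggregase, had 590 and 636 in IAA libraries and 927 and 960 in untreated libraries (log2 fold change −0.62, SE 0.06, adjusted p = 2.2e-07), and Clpx, the unfoldase of the matrix protease ClpXP, had 436 and 399 in IAA libraries and 515 and 543 in untreated libraries (log2 fold change −0.34, SE 0.08, adjusted p = 0.0013). Over the 7 lists 9 genes were higher and 36 lower, where 11.1% and 28.9% of all genes tested were. Under median-of-ratios scaling they were 19 and 22, where 20.3% and 20.5% of all genes were.

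Far fewer chaperone genes passed an adjusted p under 0.05, a cut made here, in the authors' deposited table. The authors' own label was unchanged for every chaperone gene except Dnajb14, which was labelled down. Of 69 chaperone genes with an adjusted p in that table, 3 passed as higher and 17 as lower. The 3 were Hsph1, Dnajb1 and Dnajc5, with log2 fold changes of 0.40, 0.43 and 0.39. Of all 11495 genes with an adjusted p, 2.47% and 9.57% passed (12.0% in either direction). The 17 in the authors' deposited table were Hsp90ab1, Hsp90b1, Hspa8, Hspa9, Hspa5, Hspa4, the 7 TRiC subunits with Cct symbols, Hspd1, Hspe1, Dnajb14 and Dnajc8. All 20 had the same direction and a call in the limma test. In the authors' deposited table Hspa1a and Hspa1b did not pass (adjusted p of 0.453 and 0.221), and Hspb7 had no adjusted p.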

How the data were processed

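The deposited table holds 4 poly(A) RNA libraries, 2 with IAA and 2 untreated. Per the submitters' processing notes, the tools were STAR, Bowtie2, featureCounts, DESeq2, cutadapt 1.18, deepTools and SAMtools, and the builds mm10 and dm6, with no roles given. Per the series' design text, Drosophila S2 cells were spiked in. The library columns are a score: read counts scaled by the authors with a size factor for each library, then rounded, called normalised read counts here. The deposited signal column is the authors' unrounded mean of the 4 libraries. The table also holds the authors' log2 fold change with its standard error, and the authors' p-value and adjusted p-value. The design assumed read counts. Since the columns are scaled and rounded, limma 3.58.1 (R 4.3.3) was used with an intensity trend on log2(value + 1), over the 14928 genes with a mean of at least 10. P-values were adjusted by Benjamini-Hochberg over all of them and called at 0.05. The underlying whole reads were obtained for 100% of genes, to within 0.001 of the deposited mean, and gave the depths, an unrounded fit and a voom fit. The test was checked on simulated counts in which few genes changed, evenly in both directions. In the real data many more genes were called, most of them lower, so that check cannot show how the test behaves there. What the size factors were derived from is not given in the sources used here.

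Chaperone genes outside the J proteins were named if tested. J proteins were named if called with a log2 fold change of at least 0.4 in size or if among the 2 most abundant of their class, and genes of the 7 lists if among the 2 called with the largest change, with Hsf1, Hsf2, Tcp1 and Polr2c always. A few genes that this rule names are not reported here. The chaperone genes and all lists were chosen with earlier results of these data known. Shared sequence was measured over 50-base stretches of GENCODE M21 transcripts, and a gene counted as a copy from 5% of them. Promoters are RefSeq windows of GRCm38.p6. Whether counting used strand is not given in the sources used here, so reads of overlapping genes on opposite strands cannot be told apart. Results were repeated under median-of-ratios scaling, library totals, other pseudocounts and filters, without each library, with a replicate block and against the authors' test.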

Additional observations from a re-analysis of the deposited data

How the results depend on the processing

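The counts of 18 higher and 32 lower chaperone genes depended on the filter, the test and the libraries. Without a filter they were 0 and 5 (46 at an unadjusted p under 0.05), in the authors' deposited test 3 and 17, and at a threshold of 0.01 the higher count was 11. The calls over all genes fell too. They were 5962 of 14928 genes in the main test, 817 of 30282 without a filter and 1384 of 11495 in the authors' deposited test. Without 1 library the rounded values gave 0 calls in either direction in all 4 limma fits, over all genes too, with 37 to 42 chaperone genes at an unadjusted p under 0.05. Rounding left 361 to 372 genes with no residual variance there. On unrounded values, an alternative chosen after seeing the data, the fits without 1 library gave 11 to 17 higher (11 without IAA replicate 1) and 24 to 26 lower. These fits take the spread of a group with 1 library from the other group. The median log2 fold change of −0.11 was −0.0079 under median-of-ratios scaling, −0.0041 with library totals, −0.046 without a filter, −0.14 at a mean of at least 100, −0.046 in the authors' deposited test, −0.14 to −0.091 without 1 library, and −0.14 to −0.086 there on unrounded values. Hsp90aa1 changed sign, from −0.01 to 0.088 under median-of-ratios scaling and 0.092 with library totals, which move all genes by 0.10. Over the 7 lists, the 9 higher and 36 lower genes were 19 and 22 under median-of-ratios scaling, 20 and 22 with library totals, 1 and 9 without a filter, 2 and 13 in the authors' deposited test, and 5 higher at 0.01. Without 1 library they were 0 and 0 on rounded values, and 3 to 9 (3 without IAA replicate 2) and 26 to 38 on unrounded values. Same-numbered libraries did not deviate together (correlation −0.06), and the replicate block gave 17 higher and 31 lower, without Hspb8 and Hspa4l. Pseudocount 0.5 and voom changed no call among the 70 named genes. The causes of the other shifts were not tested. Genes with few reads have wide intervals (standard errors of 0.39 for Hspb2 and 0.31 for Cct6b), and the part of depth in lost calls was not tested.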
